A study of Mus musculus with 19 samples.

Results

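Granins are acidic proteins packed into the dense-core vesicles of neurons and endocrine cells. Together with the enzymes that cut peptide precursors there, they were followed here as 9 genes, found by symbol among 55487 listed genes. The granins and granin-like members were Vgf, Scg2, Scg3, Chga and Chgb, the chaperone was Scg5, and the enzymes were Pcsk1, Pcsk2 and Cpe. They were chosen with a lower level of Vgf in treated motor neurons already known. The culture values below are therefore a description, and where members are said to pass a threshold there, this is not read as a test. No spinal cord value is named in that choice, but it was made with earlier results of these data known. All 9 passed the filter on low counts in both materials.

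RNA was sequenced from 19 mouse libraries of a study of miR-146a in the degeneration of motor neurons. Snap-frozen spinal cords gave 9 libraries labelled miR-146a KO and 4 labelled miR-146a WT. Motor neurons differentiated from the mouse embryonic stem cell line RW.4 with retinoic acid and SAG, an agonist of Smoothened, gave 3 libraries after miR-146a LNA and 3 after Control LNA. Both cultures had the label Wild-type for genotype and were transfected with 10 nM of the LNA in Lipofectamine 2000 for 72 h; an LNA is a chemically locked oligonucleotide that binds and blocks a microRNA. The labels give no strain, sex, age, litter or batch, do not describe the allele, name a single stem cell line, and do not tell whether replicate libraries are separate animals or separate cultures. The p-values therefore measure only the spread between these libraries, which may be technical.

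In neurons the granins aggregate in the trans-Golgi network and help to form dense-core vesicles. Several are themselves cut into peptides that are released with neuropeptides. Prohormone convertases cut precursors after pairs of basic residues, and carboxypeptidase E then removes those residues from the new ends. In spinal cord these vesicles are carried by motor neurons, interneurons and the endings of sensory neurons, and transcription of several granin genes is known to follow cyclic AMP and neuronal activity.

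The microRNA that was deleted or blocked is shown first because its seed defines the letters searched for in the members. miR-146a-5p comes from chromosome 11, 43374435 to 43374456, minus strand (GRCm38.p6), and miR-146b-5p, from chromosome 19, shares its seed (bases 2 to 8, in capitals, 5′ to 3′, from RefSeq).
mmu-miR-146a-5p: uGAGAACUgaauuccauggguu
mmu-miR-146b-5p: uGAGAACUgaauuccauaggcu
The site complementary to that seed, AGTTCTC on the transcript's strand, was looked for in the longest annotated 3′ UTR of each gene. It was in 0 of 9 members and in 2326 of 20979 genes with a 3′ UTR (11.1%). The members' 3′ UTRs ran from 250 bases in Chgb to 2542 bases in Pcsk1, with Vgf at 512, against a median of 954 bases over all genes. These are letters in annotated windows only and say nothing of binding elsewhere.

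Promoters were read because the letters TGACGTCA, the cyclic AMP response element, can be compared between members. RefSeq promoters, from 250 bases before to 50 after the start of the gene (GRCm38.p6), were read for 7 of the 9 members, leaving Vgf and Cpe unread. The start is the one behind each RefSeq promoter, which need not be the outer end of the gene as the count tables give it, so the windows of Scg2 and Chgb lie within the gene coordinates given further on. The full motif was in 3 of those 7, Scg2, Chgb and Pcsk1, and in 588 of 32851 promoters (1.79%). The shorter motif TGACG on either strand, which the full motif contains, was in 7 of 7 and in 6837 of 32851 promoters (20.8%). In the windows below the motif is in capitals, and all 3 are given 5′ to 3′ along the gene's own strand.
Scg2, chr1:79440073-79440108, minus strand: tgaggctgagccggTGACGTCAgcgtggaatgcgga
Chgb, chr2:132781556-132781591, plus strand: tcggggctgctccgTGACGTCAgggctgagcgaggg
Pcsk1, chr13:75089765-75089800, plus strand: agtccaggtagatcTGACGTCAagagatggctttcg
The motif began 68 bases before the RefSeq start in Scg2, 72 in Chgb and 78 in Pcsk1. For comparison, the shorter motif of Chga, Scg3 and Pcsk2 is shown in the same way.
Chga, chr12:102554883-102554915, plus strand: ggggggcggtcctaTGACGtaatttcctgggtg
Scg3, chr9:75684068-75684100, minus strand: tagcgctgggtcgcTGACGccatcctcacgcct
Pcsk2, chr2:143546085-143546117, plus strand: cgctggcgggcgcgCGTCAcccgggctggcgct
It lay 44 bases before the RefSeq start in Chga, 30 in Scg3 and 34 in Pcsk2, where it is on the opposite strand. Of the genes with the full motif, Scg2 and Pcsk1 had means in knockout cords above the wild-type mean and Chgb had one below it. None of these passed, and the promoters of Vgf and Cpe were unread. A link between the motif and the values that follow was not tested.

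Each cord library held 28163289 to 39577247 counts in all and each culture library 40647549 to 65471742. The microRNA gene itself could not check the labels, with 1 count in all knockout cords and 0 elsewhere. Its neighbour Pttg1, the securin gene, had 14.9 to 17.4 normalised CPM (CPM, the count share of a library, after TMM scaling) in wild-type cords and 1.06 to 1.81 in knockout replicates 1 to 8, but 13 in the library labelled knockout replicate 9. That library goes against its label at Pttg1 and also held Sod1, the superoxide dismutase gene, at 1947 normalised CPM against 191 to 275 in the other cords. Pttg1 was low in the cultures too, which are labelled Wild-type, at 0.385 to 1.35 normalised CPM. Its level was therefore compared between cords only. Knockout replicate 7 stood apart by skeletal muscle markers, which summed to 3681 CPM there against at most 9.04 in any other cord. Both were kept in their labelled group, and the cord results are also given without them. All 8 motor neuron markers were counted in every group, summing to 2975 to 3165 normalised CPM in cultures and 197 to 442 in cords. Prph, Slc18a3 and Slc5a7 made up most of the culture sums. Lhx3 went the other way, with means of 1.08 after control LNA and 1.77 after miR-146a LNA. Its means were 2.92 in wild-type and 2.36 in knockout cords.

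Levels of different members were compared in TPM, which divides by gene length. In wild-type cords Cpe was highest, with a median of 1067 TPM (range 1036 to 1092, n = 4), followed by Chga at 420 TPM (402 to 443). Chgb (264 TPM), Vgf (239), Scg2 (230), Scg3 (220) and Scg5 (216) lay close together. Pcsk2 at 57.5 TPM and Pcsk1 at 16.9 TPM were the lowest, so the enzyme that trims the peptide ends was far more abundant as RNA than either convertase that cuts before it. The ranges of Chgb and Vgf, of Vgf and Scg2, and of Scg3 and Scg5 overlapped, and those of the other neighbours in the order did not.

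The knockout cords kept Cpe (1160 TPM) and Chga (380 TPM) at the top and the convertases at the bottom. Between them Vgf came next, at a median of 274 TPM, with a range from 141 to 404 that covered the medians of Scg3 (261), Chgb (254), Scg2 (246) and Scg5 (221). From Chga down to Scg5 each neighbour's range overlapped the next (n = 9).

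Motor neuron cultures had another order. After control LNA, Cpe reached 2203 TPM and was place 17 among all genes, and Vgf reached 1519 TPM (1491 to 1663, n = 3) and was place 41, against place 475 in wild-type cords. Scg2 followed at 1139 TPM (1016 to 1144), then Chgb at 395, Scg3 at 274, Chga at 242, Scg5 at 178, Pcsk2 at 29.3 and Pcsk1 at 25.5, with no overlap between neighbours. The median of control cultures was 6.35 times that of wild-type cords for Vgf, 4.96 times for Scg2, 2.06 times for Cpe, 1.51 times for Pcsk1, 1.5 times for Chgb and 1.24 times for Scg3, while it was 0.825 times for Scg5, 0.576 times for Chga and 0.510 times for Pcsk2. Cords and cultures differ in cell types, in maturity and in library content, which cannot be told apart here, so no test was made between them.

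**Figure D1:**
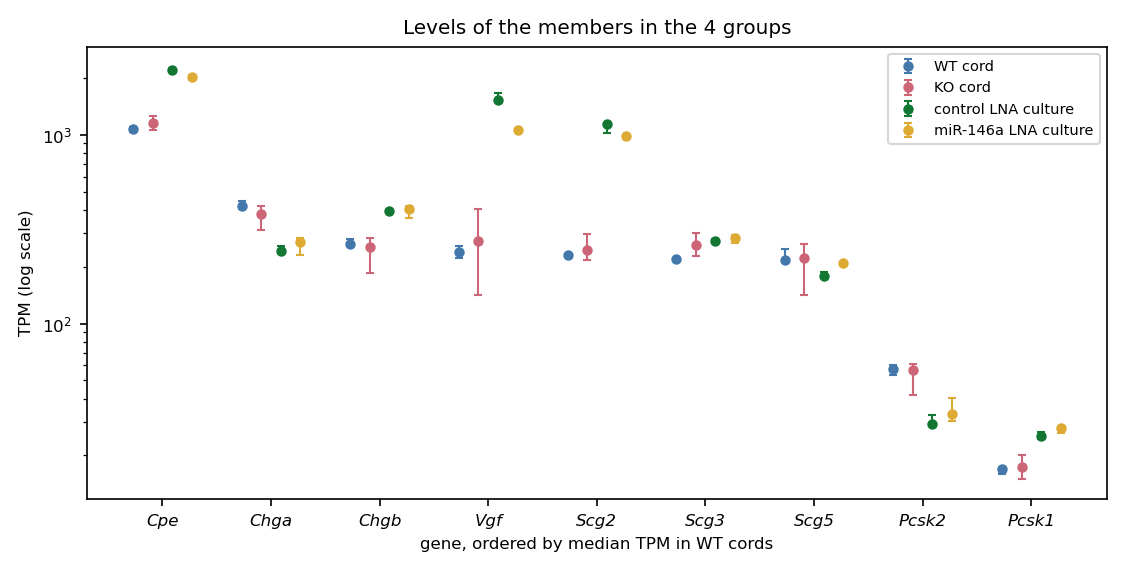
Median TPM (log axis) of each member in the 4 groups, with bars from the lowest to the highest library and genes ordered by their median in wild-type cords. Vgf and Scg2 were several times higher in the cultures than in the cords, Chga and Pcsk2 were lower there, and the widest bar is that of Vgf in knockout cords, from 141 to 404 TPM.

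In the comparison of knockout with wild-type cords, which asks whether loss of miR-146a changes these RNAs in the intact tissue, none of the 9 members passed. edgeR's quasi-likelihood test called 0 of 9 at an adjusted p below 0.05, and it called 0 of 22174 genes (0%). An unadjusted p below 0.05 was reached by 2 of 9, Scg3 higher and Chga lower in knockout cords, against 14.3% of all genes, and no member had groups that did not overlap, against 1.3% of all genes. DESeq2 and limma also called 0 of 9, against 1.72% and 0.0135% of genes. The members' log2 fold changes were positive in 5 and negative in 4, with a median of 0.0378, and that of all tested genes was 0.0171. In such whole-tissue libraries, fewer cells of a type and less RNA per cell cannot be told apart.

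Vgf (ENSMUSG00000037428, chromosome 5, 137026392 to 137033351, plus strand, GRCm38) encodes a nerve growth factor inducible precursor of several secreted peptides. Wild-type replicates 1 to 4 had 225, 253, 209 and 240 normalised CPM, and the knockout cords ran from 131 through a median of 258 to 375. The knockout values spanned the wild-type range on both sides: 5 of 9 lay above every wild-type cord and 1 lay below. Means were 264 ± 75.4 (SD, n = 9) and 232 ± 19.2 (SD, n = 4), a log2 fold change of 0.18 (SE 0.21, edgeR adjusted p = 0.709). The coefficient of variation was 28.6% in knockout and 8.29% in wild-type cords, the former being the widest among the members' knockout values. Among wild-type values Scg5 was the most spread, at 11.3%. Leaving out knockout replicates 7 and 9 together gave 0.15 (SE 0.22, edgeR adjusted p = 0.808).

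Vgf was highest in knockout replicate 7 (375 normalised CPM) and replicate 1 (369) and lowest in replicate 3 (131). The summed motor neuron markers were 442 and 382 normalised CPM in replicates 7 and 1 and 197 in replicate 3, against 271 to 320 in wild-type cords. Replicates 8 and 2 had marker sums of 198 and 216, with Vgf at 249 and 258. In replicates 6 and 9 the sums were 230 and 243, with Vgf at 230 and 214. In replicates 4 and 5 they were 319 and 281, with Vgf at 258 and 288. Of the motor neuron markers, Prph reached 213 normalised CPM in knockout cords against at most 91.4 in wild-type cords. Slc18a3 reached 128 against at most 113, and Isl1 1.84 against at most 1.55. Chat, Slc5a7, Mnx1, Isl2 and Lhx3 did not exceed their wild-type maximum in any knockout cord. Over the group 6 of 8 motor neuron markers had a log2 fold change below 0 (median −0.268), and edgeR called 0. Astrocyte markers summed to 9098 and 8558 normalised CPM in replicates 7 and 1, to 7442 in replicate 4, where Vgf was 258, and to 4817 in replicate 3, against 4120 to 5082 in wild-type cords. Of the astrocyte markers, Gfap reached 6056 in knockout cords against at most 2075 in wild-type cords, whereas Gja1 reached 381 in both groups. Over the group 4 of 6 astrocyte markers had a positive log2 fold change and 2 a negative one. The sums thus do not tell more cells from more RNA of single markers. The part of either in the Vgf values was not tested.

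Secretogranin genes lay near or above the wild-type level. Scg3 (ENSMUSG00000032181, chromosome 9, 75643189 to 75684056, minus strand) encodes secretogranin III, which ties chromogranin A to the granule membrane. Its wild-type values were 190, 197, 192 and 201 normalised CPM, and the knockout values ran from 183 through a median of 226 to 265. All but 2 of the 9 knockout cords lay above every wild-type cord, the exceptions being replicate 2 at 198 and the library labelled knockout replicate 9 at 183. Means were 228 ± 28.1 (SD, n = 9) and 195 ± 4.61 (SD, n = 4), with a log2 fold change of 0.23 (SE 0.089, edgeR unadjusted p = 0.0224, adjusted p = 0.302). Without replicates 7 and 9 it was 0.26 (SE 0.071, edgeR adjusted p = 0.159).

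Scg2 (ENSMUSG00000050711, chromosome 1, 79434669 to 79440120, minus strand), the precursor of secretoneurin, had 180, 192, 178 and 200 normalised CPM in wild-type cords and 153 to 237, with a median of 196, in knockout cords. The wild-type range lay inside the knockout range, with 3 of 9 knockout cords above every wild-type cord and 1 below, and the lowest value was the library labelled knockout replicate 9. Its log2 fold change was 0.07 (SE 0.087, edgeR adjusted p = 0.752).

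Both chromogranins had lower means in knockout cords, and neither passed. Chga (ENSMUSG00000021194, chromosome 12, 102554969 to 102565028, plus strand) encodes chromogranin A, the precursor of catestatin and pancreastatin. Wild-type cords had 366, 405, 360 and 379 normalised CPM, and knockout cords had 255 to 368 with a median of 320. In 7 of 9 knockout cords Chga lay below every wild-type cord, while replicates 2 and 5, at 368 and 364, reached the wild-type range. Means were 317 ± 40.6 (SD, n = 9) and 378 ± 19.7 (SD, n = 4), with a log2 fold change of −0.25 (SE 0.092, edgeR unadjusted p = 0.0155, adjusted p = 0.294). Without replicates 7 and 9, which held the 2 lowest values, it was −0.17 (SE 0.063, edgeR adjusted p = 0.234).

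Chgb (ENSMUSG00000027350, chromosome 2, 132781278 to 132795079, plus strand), chromogranin B, had 232, 232, 244 and 241 normalised CPM in wild-type cords and 158 to 246, with a median of 219, in knockout cords. Again 7 of 9 knockout cords lay below every wild-type cord, but replicate 2, at 246, was the highest of all. The log2 fold change was −0.17 (SE 0.096, edgeR adjusted p = 0.421), and −0.08 without replicates 7 and 9.

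**Figure D2:**
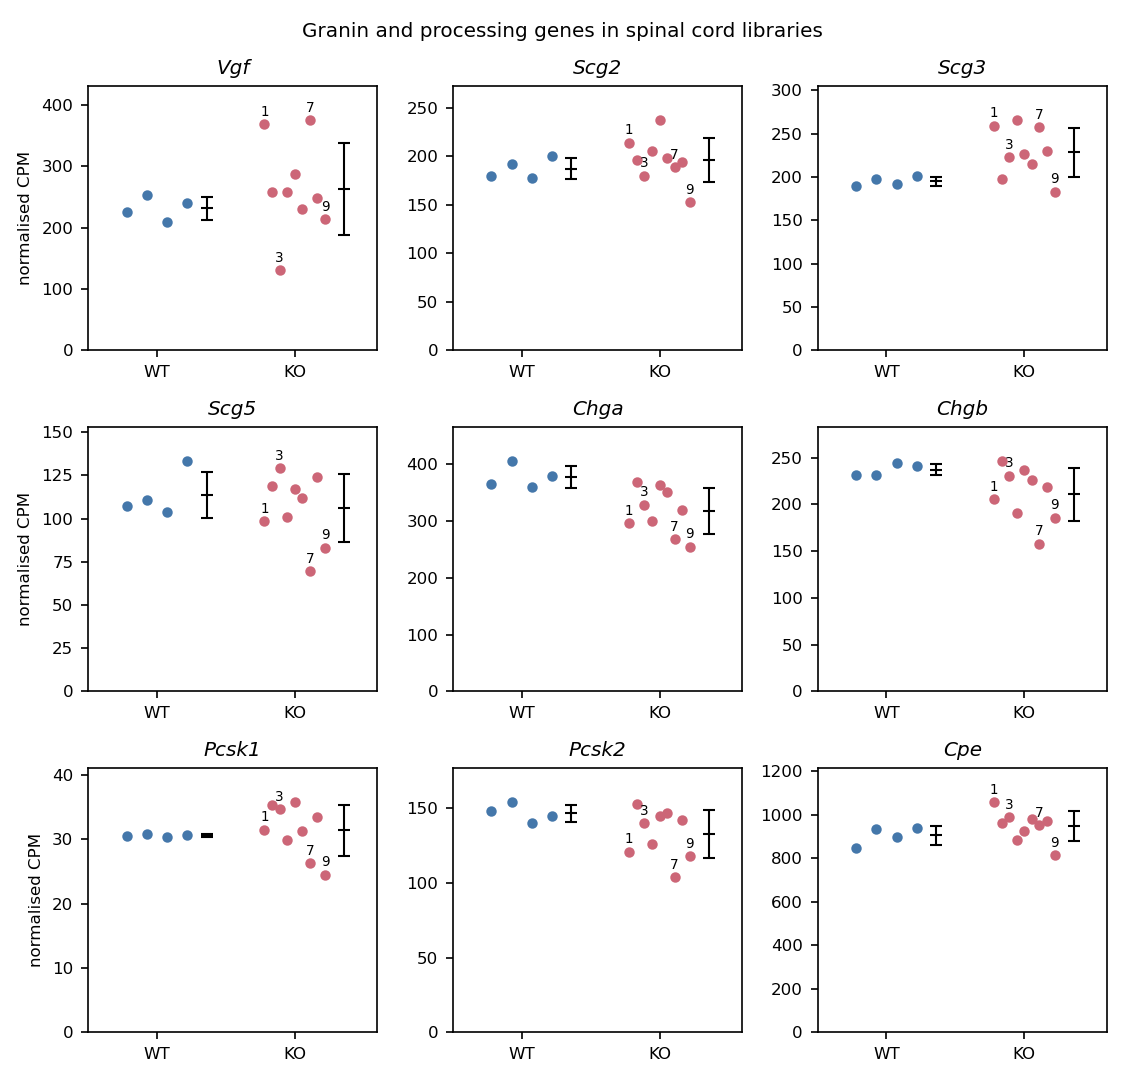
Normalised CPM of each member in every cord library, with bars for the mean and SD of the 4 wild-type and 9 knockout cords and the numbers of knockout replicates 1, 3, 7 and 9. Knockout values of Vgf ran from 131 to 375 around wild-type values of 209 to 253, and in every panel the groups overlapped.

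Among the enzymes and their chaperone no direction was shared. Pcsk1 (ENSMUSG00000021587, chromosome 13, 75089826 to 75134861, plus strand), the convertase of early granules, had 30.5, 30.8, 30.3 and 30.7 normalised CPM in wild-type cords and 24.5 to 35.7, with a median of 31.5, in knockout cords. The wild-type values were nearly identical and sat inside the knockout range, and the log2 fold change was 0.04 (SE 0.093, edgeR adjusted p = 0.877). Pcsk2 (ENSMUSG00000027419, chromosome 2, 143546156 to 143816285, plus strand), the convertase of mature granules, had 148, 154, 140 and 145 in wild-type and 104 to 153, with a median of 140, in knockout cords. The knockout range reached down from the wild-type range, with 5 of 9 below every wild-type cord, and the log2 fold change was −0.14 (SE 0.089, edgeR adjusted p = 0.455).

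Scg5 (ENSMUSG00000023236, chromosome 2, 113776362 to 113829121, minus strand) encodes the chaperone that Pcsk2 needs for its activation. It had 107, 111, 104 and 133 normalised CPM in wild-type cords and 69.7 to 129, with a median of 112, in knockout cords. Its low end was made by knockout replicate 7 at 69.7 and the library labelled knockout replicate 9 at 83.2. The log2 fold change of −0.10 (SE 0.14, edgeR adjusted p = 0.757) became 0.02 without those libraries and 0.02 with limma, so its direction was not fixed.

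Cpe (ENSMUSG00000037852, chromosome 8, 64592542 to 64693054, minus strand), carboxypeptidase E, had 845, 934, 899 and 941 normalised CPM in wild-type cords and 814 to 1056, with a median of 960, in knockout cords. In Cpe 6 of 9 knockout cords lay above every wild-type cord and 1 below, with a log2 fold change of 0.07 (SE 0.064, edgeR adjusted p = 0.643). Without replicates 7 and 9 the log2 fold changes of the members not yet given so were 0.13 in Scg2, 0.13 in Pcsk1, −0.06 in Pcsk2 and 0.11 in Cpe, and edgeR called 0 of 9 members.

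The lowest values of the members came mostly from the libraries that stood apart. The library labelled knockout replicate 9 was the lowest of all 13 cords in 5 members (Scg2, Scg3, Chga, Pcsk1 and Cpe) and lowest or next to lowest in 8. Knockout replicate 7 was lowest in 3 (Scg5, Chgb and Pcsk2), yet highest in Vgf. The summed markers of all neurons were 4146 normalised CPM in the library labelled knockout replicate 9 and 4456 in replicate 7, against 4936 to 5406 in wild-type cords. Replicate 4 had a neuronal sum of 4360, between those of replicates 9 and 7. It lay below every wild-type cord in Scg5, Chga, Chgb, Pcsk1 and Pcsk2. In Vgf, Scg2 and Scg3 it lay above every wild-type cord, and in Cpe within their range. Over the whole group 7 of 8 neuronal markers had a log2 fold change below 0 (median −0.079), and edgeR called 0. The part of neuronal content in the members' values was not tested.

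**Figure D3:**
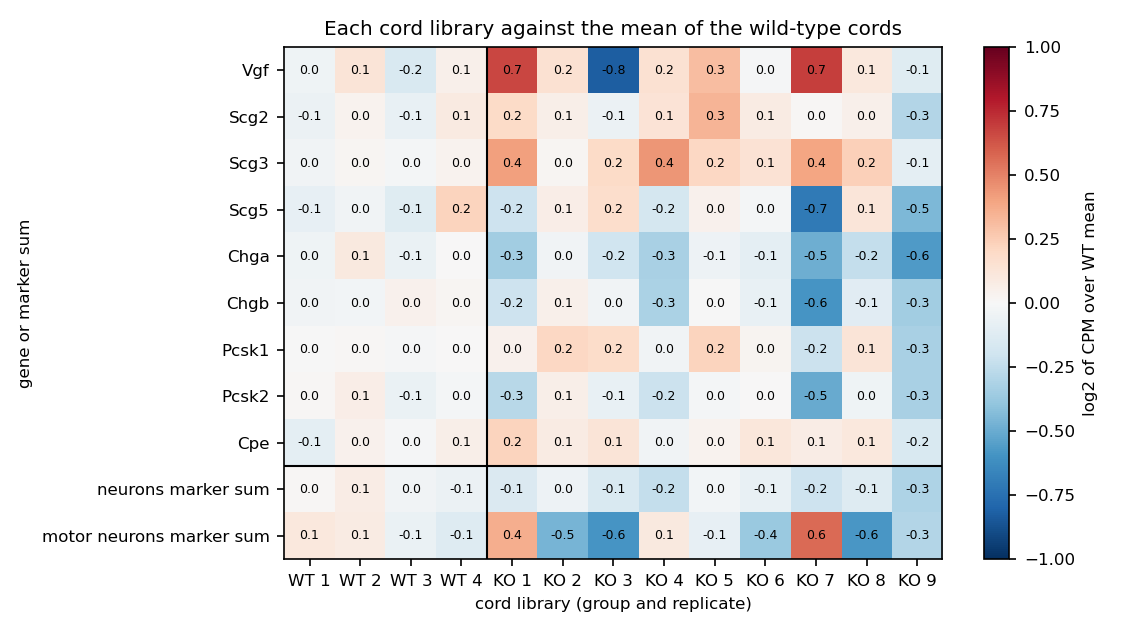
Each cord library's normalised CPM as log2 over the wild-type mean (colour and printed value), for the members and for the summed markers of neurons and motor neurons. Knockout replicates 7 and 9 are blue in most members, whereas the Vgf row is red in replicates 1 and 7 and blue in replicate 3; the motor neuron row is blue in replicates 2 and 8 as well, where Vgf is near the wild-type level.

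Genes whose levels followed Vgf most closely across the 13 cords were Rftn2 (Pearson r = 0.886), 2810006K23Rik (0.873), Ddah1 (0.857), Polr1d (0.843) and Eif4a-ps4 (0.837), the highest of 12441 genes with a mean of at least 5 CPM. These are descriptions of genes picked for the highest r, over libraries that share depth and cell content. Leaving out the 2 libraries farthest from the median of Vgf lowered r to 0.634 in Rftn2 and 0.627 in Ddah1, so these likenesses rested in part on those libraries. Polr1d, a subunit of RNA polymerases, stayed at 0.857 and the pseudogene Eif4a-ps4, whose reads may come from its parent gene, at 0.81. Ddah1, an enzyme that degrades methylated arginine, ran from 81.1 normalised CPM in knockout replicate 3 to 118 in replicate 7. No member of the granin or enzyme group could be chosen by this rule.

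The comparison of miR-146a LNA with control LNA asks what blocking the microRNA changes in the motor neuron cultures. These also held markers of other cells, given below. Here Vgf was lower and Scg5 higher, with 2 of 9 members past edgeR's threshold, against 8.56% of 19099 tested genes. Over all genes 72.0% of the calls were lower after miR-146a LNA, a share that was 52.9% when libraries were scaled by their total alone, with Vgf and Scg5 still the members called. The groups did not overlap in 4 of 9 (Vgf and Cpe lower, Scg5 and Pcsk1 higher), against 28% of all genes. Because the fall of Vgf in this contrast was known when the members were chosen, nothing is read from these counts. The median log2 fold change was 0.0454 over the members, with 6 positive and 3 negative, and 0.00763 over all tested genes.

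Vgf had 829, 797 and 847 normalised CPM after miR-146a LNA and 1190, 1300 and 1171 after control LNA. Every treated culture lay well below every control culture. Means were 824 ± 25.5 and 1220 ± 69.8 (SD, n = 3 each), 0.676 times the control level, with a log2 fold change of −0.57 (SE 0.05). Under the other tools, scalings and sets of libraries tried it lay between −0.60 and −0.52. In TPM the median went from 1519 to 1055, which still left Vgf in place 2 among the members.

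The other granins differed less. Scg2 had 652, 619 and 677 normalised CPM after miR-146a LNA and 673, 757 and 757 after control LNA, so the highest treated value passed the lowest control value, with a log2 fold change of −0.17 (SE 0.054). Scg3 had 194, 202 and 218 against 197, 202 and 194, a log2 fold change of 0.05 (SE 0.053) that came to 0.00 without replicate 3 of the miR-146a LNA. Chga had 197, 203 and 172 against 186, 175 and 174, with 0.10 (SE 0.06). In both Scg3 and Chga the groups overlapped, replicate 3 of the miR-146a LNA being the highest for Scg3 and the lowest for Chga. Chgb had 293, 297 and 267 against 289, 284 and 278, with 0.01 (SE 0.051). The sign of Chgb turned when either replicate 1 or 2 of the miR-146a LNA or replicate 3 of the control LNA was left out.

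Of the enzyme group, Scg5 had 87.7, 82.5 and 88.0 normalised CPM after miR-146a LNA and 77.2, 73.5 and 73.9 after control LNA. All treated values were above all control values, with means of 86.1 ± 3.08 and 74.9 ± 2.01 (SD, n = 3 each) and a log2 fold change of 0.20 (SE 0.057). It no longer passed edgeR's threshold when replicate 1 of the miR-146a LNA or any single control replicate was left out. Pcsk2, whose product Scg5 chaperones, had 68.9, 82.6 and 64.9 against 68.1, 59.4 and 61.3, with a log2 fold change of 0.20 (SE 0.084), and replicate 2 of the miR-146a LNA stood above the others. The groups overlapped in Pcsk2.

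Pcsk1 had 41.3, 41.4 and 39.8 normalised CPM against 37.6, 39.4 and 36.4, with a log2 fold change of 0.11 (SE 0.068). Its groups were separated by a narrow gap. Cpe had 1376, 1408 and 1409 against 1513, 1512 and 1563, with a log2 fold change of −0.13 (SE 0.043), and all treated cultures lay below all controls. Cpe and both convertases did not pass edgeR's threshold.

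**Figure D4:**
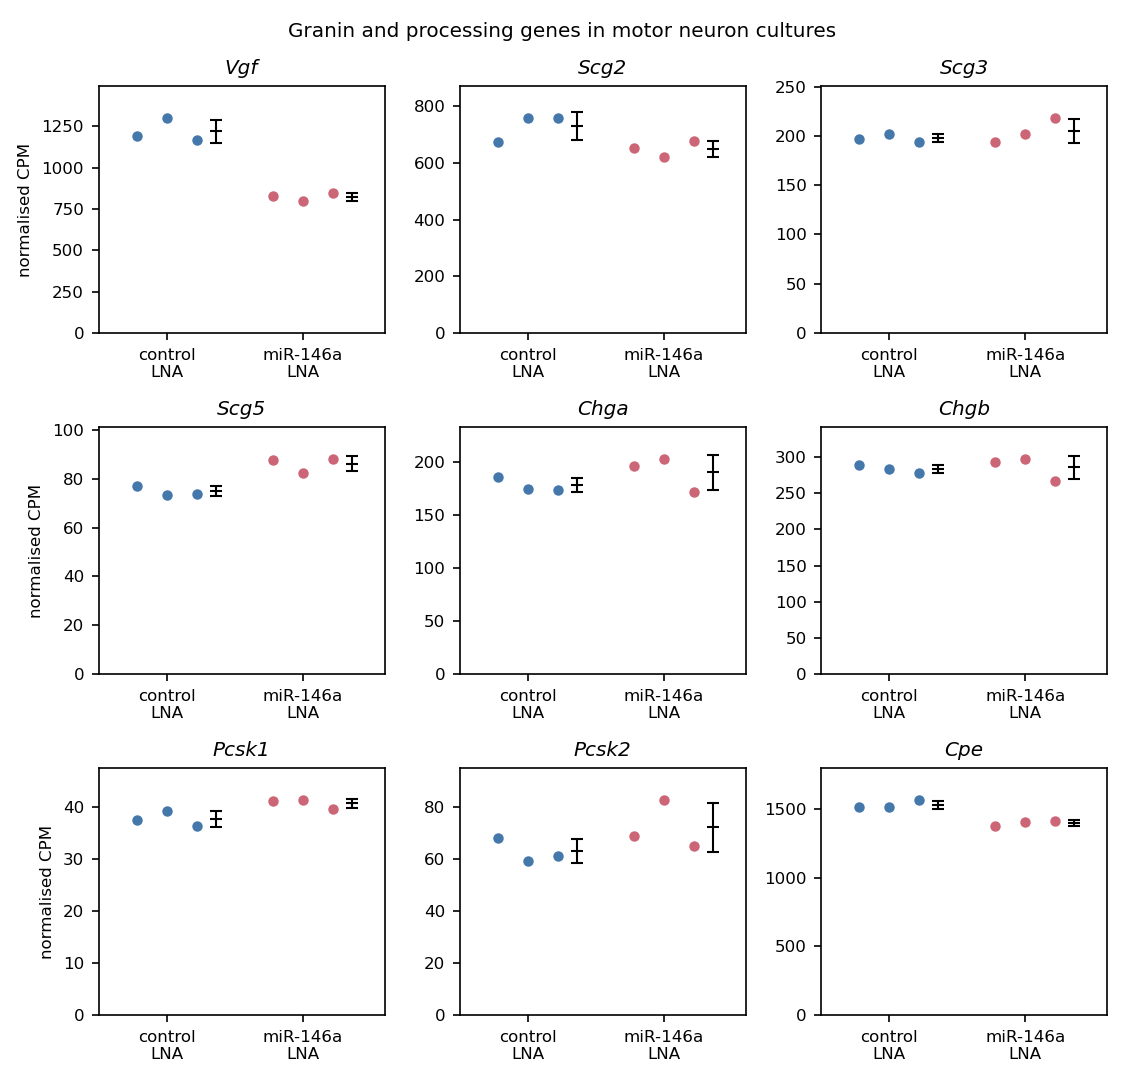
Normalised CPM of each member in the 3 cultures after control LNA and the 3 after miR-146a LNA, with bars for mean and SD. Vgf separates by a wide margin (797 to 847 against 1171 to 1300), Cpe, Scg5 and Pcsk1 by narrow ones, and the other panels overlap.

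Markers of other cells differed between the groups as well. The 8 neuronal markers summed to 5451 to 5578 normalised CPM after miR-146a LNA and 5877 to 6034 after control LNA, with 7 of 8 log2 fold changes negative, a median of −0.0966, and Syt1 and Map2 called lower by edgeR. Motor neuron markers summed to 2997 to 3165 against 2975 to 3077, so these ranges overlapped, with 5 of 8 log2 fold changes positive and Isl1 called higher. Interneuron markers were scarce, at 20.8 to 23.1 against 30.6 to 41.1, with Gad1, Gad2 and Slc6a5 called lower, and sensory ganglion markers summed to 24.3 to 26.4 against 32.2 to 33.8, with Mrgprd at 0 in both groups. Progenitor markers summed to 65.8 to 79.2 against 51.0 to 58.7, mostly from Nes, which edgeR called higher (66.4 against 50.1), while Sox2 had 2.15 against 2.64 and was not called. The part of these cells in the values of Vgf and the other members was not tested.

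Side by side, Vgf had a log2 fold change of −0.57 in cultures and 0.18 in cords, Scg2 −0.17 and 0.07, Scg3 0.05 and 0.23, Chga 0.10 and −0.25, and Chgb 0.01 and −0.17. Scg5 had 0.20 and −0.10, Pcsk2 0.20 and −0.14, Cpe −0.13 and 0.07, and Pcsk1 0.11 and 0.04. Signs differed in 7 of 9 members, Scg3 and Pcsk1 being the exceptions, but in cords no member passed. The signs of Scg5 in cords and of Scg3 and Chgb in cultures turned under alternatives named above. Over all tested genes 46.9% of log2 fold changes were negative in cords and 48.5% in cultures. The share of all genes whose signs differed was not computed, so nothing is read from the count of members. The difference between the materials was not tested.

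**Figure D5:**
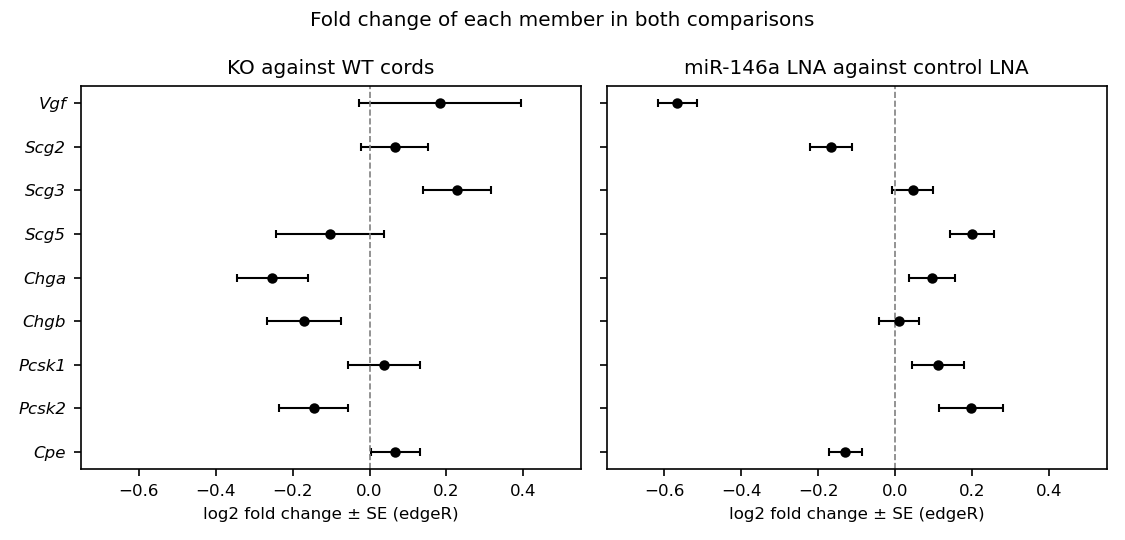
Log2 fold change with its standard error (edgeR) for each member, knockout against wild-type cords on the left and miR-146a LNA against control LNA on the right. The Vgf interval is wide around 0.18 in cords and narrow around −0.57 in cultures.

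A list of 32 other genes of precursor cutting, amidation and dense-core vesicle traffic was read beside the members. It too was chosen with earlier results of these data known, so its counts are a description and not independent evidence. In cultures 10 of 32 were called lower and 0 higher by edgeR, where 6.16% of all genes were lower and 2.4% higher. Without control replicate 2 the 10 became 5. Neuronal markers, given above, were lower in the same cultures (7 of 8 negative, with Syt1 and Map2 called), and their part in the list's values was not tested. The list's median log2 fold change was −0.153, with 25 of 32 negative, against 0.00763 over all tested genes. The 10 were Cadps, Cpd, Tspan7, Pcsk1n, Furin, Ptprn2, Pam, Slc18a2, Pcsk5 and Sytl5.

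Cadps, which primes dense-core vesicles for release, had 281 ± 13.1 normalised CPM after miR-146a LNA, down from 380 ± 2.44 (SD, n = 3 in both groups; log2 −0.43, SE 0.048, edgeR adjusted p = 2.83e-05). Pcsk1n, whose product proSAAS inhibits the Pcsk1 convertase, fell from 140 ± 14.8 to 108 ± 6.61 (log2 −0.38, SE 0.072, edgeR adjusted p = 0.00308), while Pcsk1 itself had a slightly higher mean. Furin and Cpd encode processing enzymes of the trans-Golgi network. The carboxypeptidase gene Cpd went from 204 ± 10.6 to 166 ± 4.29 normalised CPM (log2 −0.30, SE 0.052, edgeR adjusted p = 0.00127) and Furin from 81.9 ± 4.01 to 66.6 ± 5.20 (log2 −0.30, edgeR adjusted p = 0.00834). Furin lost its call without control replicate 2. The convertases Pcsk7 (log2 0.08, edgeR adjusted p = 0.652) and Pcsk6 (log2 −0.06, edgeR adjusted p = 0.93), picked for naming after their values were seen, did not pass.

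Pam, which amidates peptide ends, fell from 252 ± 16.6 to 215 ± 4.25 normalised CPM (log2 −0.23, edgeR adjusted p = 0.0121), a call lost without miR-146a LNA replicate 1, control replicate 2 or control replicate 3. Among vesicle membrane proteins, Ptprn2 fell from 20.5 ± 1.70 to 15.2 ± 1.18 (log2 −0.43, edgeR adjusted p = 0.00908), the tetraspanin Tspan7 from 393 ± 3.93 to 333 ± 7.83 (log2 −0.24, edgeR adjusted p = 0.0027), and the vesicular monoamine transporter Slc18a2 from 48.5 ± 1.93 to 39.9 ± 1.77 (log2 −0.28, edgeR adjusted p = 0.014). The Ptprn2 call was lost without control replicate 1, and that of Slc18a2 without miR-146a LNA replicate 2, control replicate 1 or control replicate 2. In each of these genes every treated culture lay below every control culture. The groups did not overlap in 17 of 32 genes of the list (16 lower, 1 higher), against 28% of all genes.

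In cords the same list had 31 tested genes, 15 with positive and 16 with negative log2 fold changes and a median of −0.0363, and 0 called by edgeR, DESeq2 or limma. An unadjusted p below 0.05 in edgeR was reached by 4 of 31, against 14.3% of all genes, so that the share was near the background. Of these, Hid1 and Tspan7 were lower and Vps13c and Sytl4 higher. Hid1, needed to form dense-core vesicles, had 115 ± 9.24 normalised CPM in knockout and 130 ± 2.04 in wild-type cords (log2 −0.18, edgeR adjusted p = 0.292). Vps13c, a lipid transfer protein, had 126 ± 27.2 against 99.3 ± 7.19 (log2 0.35, edgeR adjusted p = 0.31), with 9 of 9 knockout cords above every wild-type cord. Its lowest knockout and highest wild-type values were both 104 after rounding. The groups did not overlap in 1 of 31 genes of this list, Vps13c, against 1.3% of all genes. Tspan7 had 488 ± 56.0 against 555 ± 24.9 (log2 −0.19, edgeR adjusted p = 0.334), and Sytl4, a scarce granule docking protein, 0.863 ± 0.207 against 0.499 ± 0.304 (log2 0.79, edgeR adjusted p = 0.339).

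Genes for the cargo were read from a second list of 32 peptide and factor precursors, chosen with the same knowledge, so its counts are likewise a description. In cultures 24 were tested and 3 were called by edgeR, against 8.56% of all genes, and leaving out 1 library gave 1 (without control replicate 2) to 8 (without control replicate 1). Of the 3, 1 was lower (Adcyap1) and 2 were higher (Calca and Adm), with 11 positive and 13 negative values and a median of −0.0435. Adcyap1, the precursor of the peptide PACAP, fell from 10.0 ± 1.26 to 4.77 ± 0.194 normalised CPM (log2 −1.07, SE 0.14, edgeR adjusted p = 9.45e-05). Calca, which encodes calcitonin gene-related peptide, a motor neuron peptide, rose from 61.6 ± 12.5 to 97.7 ± 6.24 (log2 0.67, SE 0.14, edgeR adjusted p = 0.0273). Its call was lost when any 1 of the miR-146a LNA replicates or control replicate 2 was left out.

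Calcb, its close copy, had 6.64 ± 0.253 against 4.32 ± 1.28 normalised CPM (log2 0.62, edgeR adjusted p = 0.0514), and reads shared by both genes make their split uncertain. Adm, the adrenomedullin gene, rose from 0.706 ± 0.196 to 1.66 ± 0.217 (log2 1.23, SE 0.30, edgeR adjusted p = 0.0145), from 27 to 118 counts per library, and lost its call without control replicate 2.

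In cords 30 precursor genes were tested, with 19 positive and 11 negative values and a median of 0.0888, and edgeR called 0. At an unadjusted p below 0.05 there were 4 of 30, against 14.3% of all genes, which is no more than the background. DESeq2 called 2 of 30, Apln and Crh, against 1.72% of all genes. Apln, the apelin gene, had 40.0 ± 7.11 normalised CPM in knockout and 66.2 ± 12.5 in wild-type cords (log2 −0.72, SE 0.14), with an adjusted p of 0.292 in edgeR and 0.00191 in DESeq2. Crh, corticotropin-releasing hormone, had 2.03 ± 1.08 against 0.62 ± 0.258 (log2 1.70, SE 0.45), from 12 to 118 counts per library, with an adjusted p of 0.292 in edgeR and 0.0154 in DESeq2. All 9 knockout cords lay above every wild-type cord in Crh, and 8 of 9 lay below in Apln. The groups did not overlap in 1 of 30 precursor genes, Crh, against 1.3% of all genes. Cck, the cholecystokinin gene, had 24.2 ± 6.31 against 34.0 ± 2.86 (log2 −0.49, edgeR adjusted p = 0.294) and Calcb 4.13 ± 0.94 against 5.58 ± 1.26 (log2 −0.43, edgeR adjusted p = 0.324).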

How the data were processed

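Ribosomal RNA was removed with RNase H and reads of 150 bases were aligned with STAR to Ensembl release 101 (GRCm38) and counted per gene with featureCounts, per the submitters' design and processing notes. How strand and duplicates were treated is not given in the sources used here, so genes with an overlapping or antisense partner are uncertain. Each library's table holds raw counts deposited by the authors, together with CPM, FPKM and TPM columns that the authors deposited. CPM equalled the count share of the column sum in every library, TPM gave the levels between genes, and FPKM served as an alternative for those levels. Symbols came from GENCODE M21 and matched 55141 of 55487 identifiers (99.4%).

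Counts were tested within each material with edgeR 4.0.16 in R 4.3.3 (quasi-likelihood test, robust), after filterByExpr and TMM scaling, with Benjamini-Hochberg adjustment over all tested genes and a threshold of 0.05. The scripts were tested on simulated data with known changes. DESeq2 1.42.0, limma 3.58.1 with quality weights, other scalings, no filter, a replicate block in cultures and fits without libraries were alternatives. No replicates agreed within sampling noise (smallest chi-square per degree of freedom 6.42). Cord replicate numbers follow accession order and only name libraries. Standard errors were derived from the fold change and the F statistic.

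The members, the lists and the alternatives were chosen with earlier results of these data known. Named are all members, from both lists the called genes in each comparison (at most 8 with the smallest edgeR p, or the 4 smallest where fewer than 4 were called), and the 5 genes most correlated with Vgf over cords in log2 CPM with a prior count of 2. Where 10 list genes were called, the remaining 2 are named without values. Sequences are from RefSeq (GRCm38.p6), and 3′ UTRs from GENCODE M21.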

Additional observations from a re-analysis of the deposited data

How the results depend on the processing

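In cords no alternative called a member: all fits kept 0 of 9, and 169 of 171 alternative log2 fold changes of members kept their direction and side of the threshold. The exceptions were Scg5, at 0.02 with limma and 0.02 without both knockout replicates 7 and 9, whose value ran from −0.15 upward on leaving out 1 library. Over all genes in cords edgeR called 0, DESeq2 381, limma 3 and edgeR without both those replicates 8, and leaving out 1 library gave 0 to 2. The precursor list had 2 calls in cords with DESeq2.

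In cultures, where the choice of members used the value of Vgf, 2 members called became 4 with limma, 4 without the filter, and 1 to 6 on leaving out 1 library, 6 being without miR-146a LNA replicate 3 and 1 without its replicate 1 or control replicate 2 or 3. Genes called numbered 1635, and 778 to 1985 with 1 library left out, 778 without control replicate 2 and 1059 without control replicate 1. The processing list's 10 calls became 5 without control replicate 2, within 5 to 14. The precursor list's 3 calls became 7 with DESeq2, 6 with limma, 6 with library size scaling and 7 without the filter, and 1 to 8 with 1 library left out (8 without control replicate 1, 1 without control replicate 2). The causes of these moves were not tested. Chgb turned to −0.01, −0.02 and −0.01 without miR-146a LNA replicate 1 or 2 or control replicate 3, and Scg3 to −0.00 without miR-146a LNA replicate 3, their highest values with 1 library left out being 0.06 and 0.09.

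Culture replicate numbers did not pair the libraries (same-number correlations 0.056, −0.149 and 0.019). With the replicate block edgeR called 1793 genes, 2 members, 11 processing genes and 7 precursors. The order of levels in TPM kept 7 to 9 of 9 members in place. Within a library FPKM differs from TPM by the same factor for every gene, so FPKM could not change the order there. Each member had at least 719 counts in every cord library.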
